A study of Homo sapiens with 15 samples.

Results

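The genes described here are 41 genes of mitotic entry, the spindle checkpoint and cytokinesis. They were chosen by name for their roles in cell division, with earlier results of these data known. All 41 were among the 17272 genes of the expression table. Expression was measured by RNA sequencing in 15 libraries of LNCaP cells, a human prostate cancer line from a lymph node metastasis that grows in response to androgen and carries a mutated androgen receptor. All cells were kept in charcoal-stripped serum, which is poor in steroids, and all were then given the synthetic androgen R1881 for 22 h. In 5 libraries R1881 was combined with 2 µM darolutamide, an androgen receptor antagonist, and in 10 libraries R1881 was given with the DMSO vehicle only. The labels give R1881 at 1 nM. The study's methods give the sizes of the groups the other way round and a higher R1881 concentration, and the labels were followed. Every group therefore carried the androgen, and the comparison shows the addition of darolutamide to it, not the absence of androgen. LNCaP is a single line. The study's methods call the libraries biological replicates, but neither they nor the labels say whether those of a group came from separate cultures. The p-values therefore measure only the spread between these libraries.

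The library numbers in the labels fall into 3 runs of consecutive numbers. The R1881 + darolutamide libraries are numbered 86-90, and the R1881 libraries are numbered 71-75 and 51-55. The labels do not say what the runs stand for, such as a day of culture or of sequencing. No run held both treatments, so the treatment and the run cannot be told apart. The R1881 runs are shown separately in the figures by library and in the comparisons of runs below. Elsewhere the R1881 values and fold changes pool both runs.

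A cell enters mitosis when CDK1, bound to its A- and B-type cyclins, is switched on by CDC25 phosphatases and by feedback from the Polo and Aurora kinases. Spindle microtubules then attach to chromosomes through the NDC80 complex at the kinetochore. The spindle checkpoint (MAD and BUB proteins, TTK) holds back the anaphase-promoting complex and its activator CDC20 until every chromosome is attached, after which separase cuts cohesin, the sister chromatids part and the cell is divided by cytokinesis. The RNAs of most of these proteins accumulate in late S phase and G2 and are low in resting cells. In many of their promoters a cell cycle genes homology region (CHR), which is read by the MuvB core of the DREAM, MYBL2 and FOXM1 complexes, lies near the transcription start, with CCAAT boxes, the site of the factor NF-Y, upstream of it.

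The promoters of 6 of the genes are printed to show how these motifs are placed, and that of MAD1L1 is printed because it held none of these motifs and its gene alone did not pass the test with darolutamide. The sequences are the 200 bases before the transcription start in RefSeq (build GRCh38.p14), 5′ to 3′ on the gene's own strand. Capitals mark the CHR (TTTGAA or TTCGAA) and the CCAAT box, read on either strand, so that TTCAAA and ATTGG are the same motifs reversed.
CCNB2: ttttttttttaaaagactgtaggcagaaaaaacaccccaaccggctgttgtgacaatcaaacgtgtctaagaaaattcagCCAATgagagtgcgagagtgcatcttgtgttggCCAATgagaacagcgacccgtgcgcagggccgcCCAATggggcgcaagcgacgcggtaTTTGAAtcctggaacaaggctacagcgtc
CDC20: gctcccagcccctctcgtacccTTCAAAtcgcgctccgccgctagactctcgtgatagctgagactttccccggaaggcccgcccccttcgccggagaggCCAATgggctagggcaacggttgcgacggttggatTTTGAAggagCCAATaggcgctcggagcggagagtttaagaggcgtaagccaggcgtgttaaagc
CDK1: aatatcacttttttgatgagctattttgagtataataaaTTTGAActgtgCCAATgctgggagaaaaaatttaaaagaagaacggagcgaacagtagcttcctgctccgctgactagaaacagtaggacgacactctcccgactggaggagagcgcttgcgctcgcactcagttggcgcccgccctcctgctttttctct
HMMR: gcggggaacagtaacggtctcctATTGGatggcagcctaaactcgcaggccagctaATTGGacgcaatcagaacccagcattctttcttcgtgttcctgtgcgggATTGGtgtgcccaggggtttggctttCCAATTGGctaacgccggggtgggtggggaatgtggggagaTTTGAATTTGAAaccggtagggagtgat
MKI67: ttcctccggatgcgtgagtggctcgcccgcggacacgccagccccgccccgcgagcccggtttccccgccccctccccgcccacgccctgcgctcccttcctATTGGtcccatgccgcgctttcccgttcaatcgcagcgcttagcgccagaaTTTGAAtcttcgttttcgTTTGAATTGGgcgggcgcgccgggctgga
PLK1: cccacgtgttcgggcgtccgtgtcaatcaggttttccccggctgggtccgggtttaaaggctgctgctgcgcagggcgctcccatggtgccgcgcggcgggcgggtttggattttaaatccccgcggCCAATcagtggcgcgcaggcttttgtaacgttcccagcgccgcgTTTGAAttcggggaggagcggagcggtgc
MAD1L1: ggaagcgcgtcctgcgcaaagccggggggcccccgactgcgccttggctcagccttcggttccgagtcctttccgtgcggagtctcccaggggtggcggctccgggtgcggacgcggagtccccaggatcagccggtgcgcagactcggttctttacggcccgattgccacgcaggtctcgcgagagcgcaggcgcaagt
On GRCh38 these windows are chr15:59104946-59105145 (+) for CCNB2, chr1:43358781-43358980 (+) for CDC20, chr10:60778131-60778330 (+) for CDK1, chr5:163460432-163460631 (+) for HMMR, chr10:128126424-128126623 (-) for MKI67, chr16:23678689-23678888 (+) for PLK1 and chr7:2232946-2233145 (-) for MAD1L1. In MKI67 the CHR nearest the start overlaps a reversed CCAAT box, and in HMMR a CCAAT box overlaps its own reverse and the last CHR is doubled. In CCNB2, HMMR and PLK1 every CCAAT box lies upstream of the CHR. In CDK1 the CHR, at -161 bases, lies just upstream of the CCAAT box at -150, and in CDC20 the CHRs (-178 and -65) alternate with the CCAAT boxes (-100 and -55). The RefSeq starts of CCNB2, HMMR, PLK1 and MAD1L1 lie inside the gene models of GENCODE used for the positions below.

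Values are given as normalised read counts (CPM, read counts divided by one factor for each library), which compare a gene between libraries and not genes with each other. Darolutamide libraries below are those given R1881 and darolutamide, and R1881 libraries those given R1881 and vehicle. Fold changes are log2 differences of CPM + 0.5, R1881 + darolutamide minus R1881, from limma over all genes, with Benjamini-Hochberg adjustment over all 17272 genes and a threshold of 0.05. With darolutamide, 40 of the 41 mitotic genes were lower, none was higher (0 also at an unadjusted p under 0.05 and by edgeR and DESeq2), and MAD1L1 did not pass. Among all genes tested, 23.7% were lower and 22.8% were higher. For the mitotic genes the log2 fold change had a median of -0.57 (range -0.79 to -0.02), against 0.00043 over all genes. After scaling by library totals instead, 38 mitotic genes were lower, and over all genes 3030 were lower and 5326 higher in place of 4098 and 3946. A log2 fold change of -0.5 or less together with a passed test was found in 26 of the mitotic genes and in 6.68% of all genes. In 32 of the mitotic genes every R1881 + darolutamide library lay below every R1881 library, against 12.6% of all genes. The other 9 genes, whose ranges overlapped, were CDC25B, NEK2, INCENP, BUB1B, BUB3, MAD2L1, MAD1L1, PTTG1 and ESPL1. In bulk RNA, fewer cells in G2 and mitosis and less of these RNAs in each such cell cannot be told apart.

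**Figure D1:**
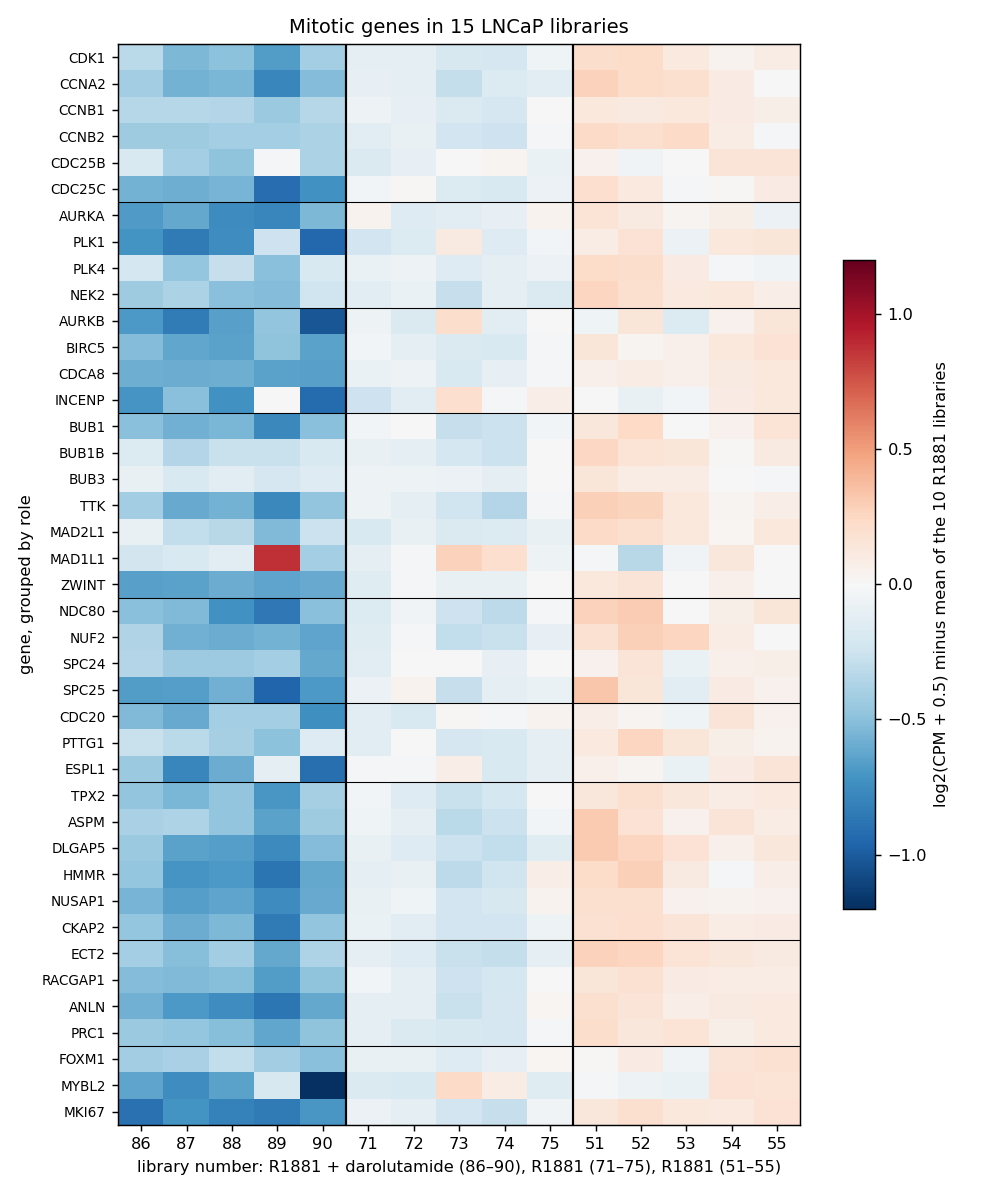
Expression of the 41 mitotic genes (rows, grouped by role) in the 15 libraries (columns, by library number), as the difference of log2(CPM + 0.5) from the mean of the 10 R1881 libraries. R1881 + darolutamide libraries 86-90 are blue in nearly every row, R1881 libraries 71-75 are mostly pale blue and 51-55 pale red, and MAD1L1 is high in library 89.

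The study's androgen-responsive genes and the state of the libraries were examined first. FKBP5, a direct androgen receptor target, measured 133 to 162 CPM in R1881 + darolutamide libraries and 1324 to 1597 CPM in R1881 libraries. KLK3, which encodes prostate-specific antigen, measured 559 to 707 CPM with darolutamide and 1345 to 1868 CPM with R1881. Neither gene overlapped between the groups. Of 9 luminal prostate markers all were measured, and their summed level was 5949 to 6008 CPM in R1881 + darolutamide libraries and 8822 to 9827 CPM in R1881 libraries. Markers of other cell types were low where measured: fibroblast markers summed to 13.5 to 30.6 CPM with darolutamide and 6.36 to 10.5 CPM with R1881 (3 of 6 matched, all 3 higher), the basal marker KRT14 measured 0.528 to 0.878 CPM with darolutamide and 0.706 to 1.44 CPM with R1881 (1 of 3 matched), the endothelial marker VWF measured 3.57 to 4.10 CPM with darolutamide and 2.08 to 2.84 CPM with R1881 (1 of 4 matched), and none of 5 leukocyte markers was matched. Neuroendocrine markers summed to 49.8 to 56.0 CPM with darolutamide and 30.6 to 36.5 CPM with R1881 (2 of 4 matched), nearly all of it from ENO2. Libraries held 21870398 to 25317567 reads with darolutamide and 15830745 to 24316740 with R1881, and a mitotic gene had between 95 (SPC25) and 7057 (CDK1) reads in a library. The 20 most abundant genes of a library took 7.33 to 8.12% of the signal with darolutamide and 6.47 to 6.80% with R1881, and mitochondrial genes took 3.12 to 3.94% with darolutamide and 2.65 to 3.02% with R1881. The part of these shifts in the results below was not tested.

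On the second principal component of all genes, darolutamide replicates 3 and 4 (libraries 90 and 89) stood apart from the other 3, with scores of -28.8 and 49.4, and R1881 replicates 6 and 5 (libraries 73 and 74) stood apart from the other R1881 libraries, with scores of 27.6 and 15.1. Replicate 4 was the lowest of the 5 in 24 of the mitotic genes and the highest in 9, which were AURKB, BIRC5, CDC20, CDC25B, ESPL1, INCENP, MAD1L1, MYBL2 and PLK1. Without replicates 3 and 4, which these same data set apart, 40 mitotic genes were still lower, with a median log2 fold change of -0.52. Without R1881 replicates 5 and 6, a setting added after the data were seen, 40 were lower, with a median of -0.60.

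All 6 genes of the cyclin-dependent kinase switch were lower (median log2 fold change -0.45). CDK1, the kinase that drives mitotic entry (chromosome 10, 60778331 to 60794852, GENCODE 44 on GRCh38), measured 185, 215, 204, 169 and 192 CPM in R1881 + darolutamide replicates 1 to 5. In R1881 libraries it measured 235, 270 and 314 CPM (lowest, median, highest). The groups did not overlap, and the log2 fold change was -0.49 ± 0.0745 (SE; limma adjusted p = 3.36e-05). CCNB1, cyclin B1, the main partner of CDK1 at mitotic entry (chromosome 5, 69167135 to 69178245), measured 99.4, 99.4, 99.5, 92.6 and 99.1 CPM with darolutamide and 110, 130 and 138 CPM with R1881 (lowest, median, highest). Of the 5 darolutamide libraries 4 were nearly level and replicate 4 lay below them, and all were below the R1881 libraries (log2 fold change -0.37 ± 0.0560, limma adjusted p = 3.16e-05). CCNB2, the Golgi-associated cyclin B2, measured 30.3 to 31.4 CPM with darolutamide and 34.4 to 48.2 CPM with R1881, a log2 fold change of -0.41 (limma adjusted p = 0.000253).

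CCNA2, cyclin A2, which acts in S phase and G2 (chromosome 4, 121816444 to 121823883), measured 24.9, 27.7, 25.8, 21.5 and 25.3 CPM in R1881 + darolutamide libraries, against 30.4, 35.9 and 45.1 CPM (lowest, median, highest) in R1881 libraries. The groups did not overlap (log2 fold change -0.57 ± 0.0871, limma adjusted p = 3.39e-05). The phosphatases that remove the inhibitory phosphates of CDK1 differed from each other in how cleanly the groups parted. CDC25C (chromosome 5, 138285269 to 138338355) measured 8.30, 8.41, 7.44, 6.51 and 8.45 CPM with darolutamide and 11.1, 12.7 and 14.7 CPM with R1881 (lowest, median, highest), with no overlap (log2 fold change -0.67 ± 0.0742, limma adjusted p = 7.66e-07). CDC25B (chromosome 20, 3786772 to 3806121) measured 18.1, 21.2, 18.5, 24.0 and 17.2 CPM with darolutamide and 21.4, 24.2 and 26.9 CPM with R1881 (lowest, median, highest). Replicate 4 lay within the R1881 range, and the log2 fold change was -0.29 ± 0.0727 (limma adjusted p = 0.00292).

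The Aurora, Polo and NIMA kinases, which build the spindle and duplicate its poles, were lower in 4 of 4 (median log2 fold change -0.54). AURKA, which matures the centrosome (chromosome 20, 56369389 to 56392337), measured 21.0, 20.1, 22.2, 18.6 and 19.0 CPM in R1881 + darolutamide libraries and 29.04, 33.2 and 36.5 CPM (lowest, median, highest) in R1881 libraries. The gap between the groups was wider than the range within darolutamide libraries (log2 fold change -0.67 ± 0.0591, limma adjusted p = 3.75e-08). PLK1, which activates CDC25C and acts from centrosome to midbody (chromosome 16, 23677656 to 23690367), measured 18.5, 20.3, 17.3, 28.3 and 19.9 CPM with darolutamide and 28.6, 34.4 and 38.05 CPM with R1881 (lowest, median, highest). Replicate 4 came close to the lowest R1881 library while the other 4 were far below it (log2 fold change -0.70 ± 0.0972, limma adjusted p = 1.15e-05), and without replicate 4 the log2 fold change was -0.81. PLK4, which starts centriole duplication (chromosome 4, 127880893 to 127899224), measured 11.7, 14.1, 14.4, 11.4 and 13.4 CPM with darolutamide and 14.6, 15.8 and 19.2 CPM with R1881 (lowest, median, highest). Its groups were separate by a small margin (log2 fold change -0.33 ± 0.0749, limma adjusted p = 0.00157). NEK2, which splits the centrosomes, measured 13.4 to 16.4 CPM with darolutamide and 16.02 to 23.4 CPM with R1881 (log2 fold change -0.41, limma adjusted p = 0.000563).

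The chromosomal passenger complex, which corrects wrong attachments and later sits at the midzone, was lower in all 4 subunits (median log2 fold change -0.60). CDCA8, the subunit borealin (chromosome 1, 37692481 to 37709719), measured 22.5, 22.7, 21.6, 21.8 and 22.6 CPM in R1881 + darolutamide libraries and 30.0, 34.7 and 37.5 CPM (lowest, median, highest) in R1881 libraries. The darolutamide libraries were nearly level, well below every R1881 library (log2 fold change -0.61 ± 0.0515, limma adjusted p = 2.15e-08). INCENP, the scaffold of the complex (chromosome 11, 62123998 to 62153169), measured 15.7, 13.5, 11.6, 22.3 and 13.3 CPM with darolutamide and 18.8, 22.2 and 25.9 CPM with R1881 (lowest, median, highest). Replicate 4 lay at the R1881 median and the other 4 below the R1881 range (log2 fold change -0.57 ± 0.112, limma adjusted p = 0.000387). AURKB, its kinase, measured 5.63 to 8.49 CPM with darolutamide and 10.6 to 13.9 CPM with R1881 (log2 fold change -0.74, limma adjusted p = 1.71e-06). BIRC5, survivin, measured 40.4 to 45.4 CPM with darolutamide and 55.7 to 71.4 CPM with R1881 (log2 fold change -0.58, limma adjusted p = 3.03e-07).

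The spindle checkpoint was the role class with the widest spread of fold changes, from -0.62 to -0.02 on the log2 scale (median -0.30), and 6 of its 7 genes were lower. ZWINT, which binds the kinetochore scaffold (chromosome 10, 56357227 to 56361273), measured 50.2, 49.8, 51.6, 50.5 and 52.0 CPM in R1881 + darolutamide libraries and 70.7, 78.7 and 87.2 CPM (lowest, median, highest) in R1881 libraries. It had the smallest p of the 41 genes (log2 fold change -0.62 ± 0.0454, limma adjusted p = 3e-09). BUB1, a checkpoint kinase, measured 20.4 to 24.7 CPM with darolutamide and 28.9 to 41.5 CPM with R1881 (log2 fold change -0.58, limma adjusted p = 7.53e-06). TTK, the MPS1 kinase that starts checkpoint signalling, measured 14.0 to 18.1 CPM with darolutamide and 18.9 to 29.8 CPM with R1881 (log2 fold change -0.57, limma adjusted p = 8.55e-05).

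The soluble inhibitors of CDC20 moved less. MAD2L1 measured 34.9 to 47.6 CPM with darolutamide and 44.4 to 59.3 CPM with R1881 (log2 fold change -0.30, limma adjusted p = 0.00508). BUB1B, BUBR1, measured 37.3 to 42.7 CPM with darolutamide and 40.0 to 56.8 CPM with R1881 (log2 fold change -0.25, limma adjusted p = 0.0109). BUB3 measured 115 to 125 CPM with darolutamide and 123 to 147 CPM with R1881 (log2 fold change -0.15, limma adjusted p = 0.00572). The ranges of all 3 overlapped between the groups, and after scaling by library totals the limma adjusted p of BUB1B was 0.0534 and that of BUB3 was 0.108. MAD1L1, which holds MAD2L1 at unattached kinetochores (chromosome 7, 1815793 to 2233243), measured 10.4, 10.1, 8.802, 22.2 and 10.8 CPM with darolutamide and 9.32, 11.7 and 14.4 CPM with R1881 (lowest, median, highest). Replicate 4 was above every R1881 library and the other 4 lay in the lower part of the R1881 range or below it (log2 fold change -0.02 ± 0.156, limma adjusted p = 0.946). Without replicate 4 MAD1L1 was lower with darolutamide (log2 fold change -0.24, limma adjusted p = 0.0346), and without replicates 3 and 4 it did not pass (-0.18, limma adjusted p = 0.146).

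**Figure D2:**
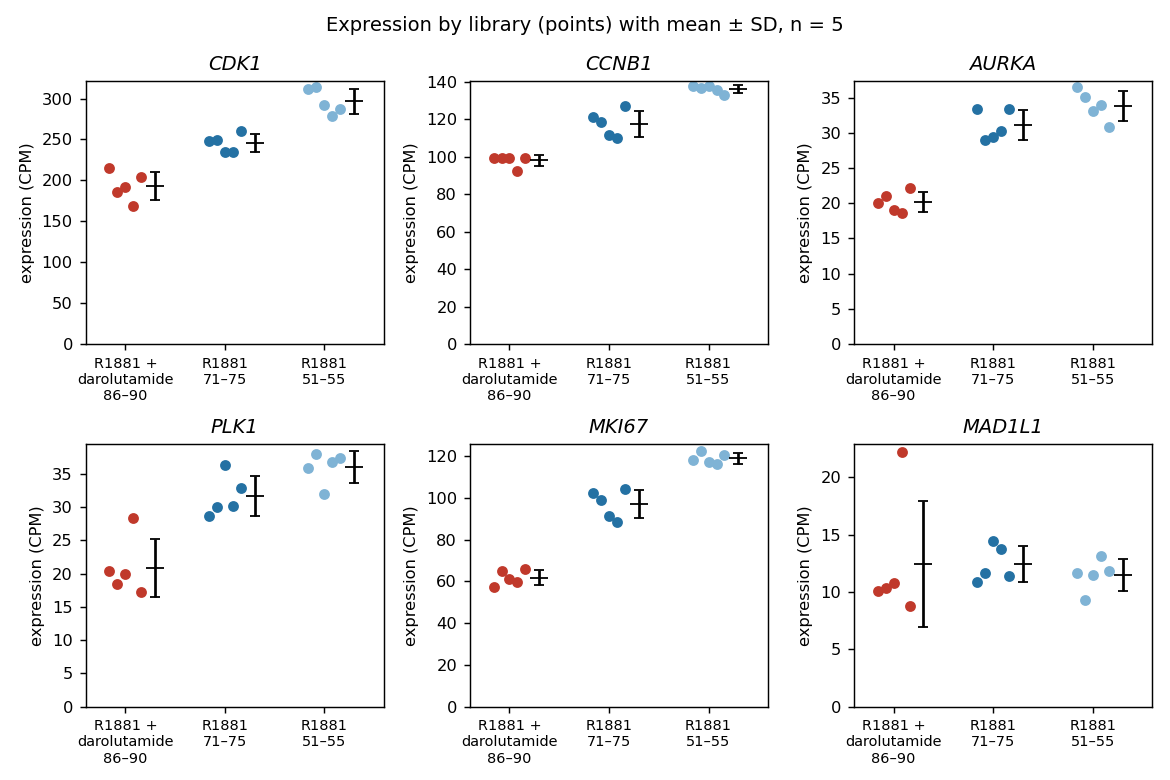
Expression in CPM (vertical axes, from 0) of CDK1, CCNB1, AURKA, PLK1, MKI67 and MAD1L1 in each library (points) of R1881 + darolutamide 86-90, R1881 71-75 and R1881 51-55, with the mean and SD of each run (n = 5). The darolutamide points lie below all R1881 points in the first 5 genes, one PLK1 point comes near them at 28.3 CPM, and one MAD1L1 point stands above all others at 22.2 CPM.

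The NDC80 complex, the microtubule grip of the kinetochore, was lower in 4 of 4 subunits (median log2 fold change -0.59). SPC24 (chromosome 19, 11131520 to 11155807) measured 19.5, 20.8, 17.2, 20.04 and 19.6 CPM in R1881 + darolutamide libraries and 24.2, 26.6 and 29.7 CPM (lowest, median, highest) in R1881 libraries, with no overlap (log2 fold change -0.45 ± 0.0538, limma adjusted p = 1.95e-06). NUF2 (chromosome 1, 163266576 to 163355764) measured 13.7, 15.9, 13.1, 13.7 and 13.5 CPM with darolutamide and 16.7, 20.6 and 25.2 CPM with R1881 (lowest, median, highest). Replicate 2 stood above the other 4 but below all R1881 libraries (log2 fold change -0.55 ± 0.0923, limma adjusted p = 9.29e-05). SPC25 measured 4.48 to 5.96 CPM with darolutamide and 7.43 to 11.6 CPM with R1881 (log2 fold change -0.71, limma adjusted p = 3.5e-06). NDC80 itself measured 18.9 to 24.3 CPM with darolutamide and 27.7 to 43.0 CPM with R1881 (log2 fold change -0.62, limma adjusted p = 3.97e-05).

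The genes of anaphase onset were lower in 3 of 3 (median log2 fold change -0.54). CDC20, the activator of the anaphase-promoting complex (chromosome 1, 43358981 to 43363203), measured 34.2, 36.1, 31.2, 39.5 and 39.4 CPM in R1881 + darolutamide libraries and 46.2, 53.3 and 58.5 CPM (lowest, median, highest) in R1881 libraries, without overlap (log2 fold change -0.54 ± 0.0603, limma adjusted p = 8.49e-07). PTTG1, securin, which restrains separase (chromosome 5, 160421855 to 160428739), measured 31.7, 33.0, 35.7, 28.2 and 30.2 CPM with darolutamide and 34.5, 40.4 and 47.8 CPM with R1881 (lowest, median, highest). Its ranges overlapped through replicate 3 (log2 fold change -0.33 ± 0.0753, limma adjusted p = 0.00165), and since near-identical copies of PTTG1 are counted apart in the table, its level is uncertain. ESPL1, separase, measured 6.997 to 12.5 CPM with darolutamide and 11.8 to 15.2 CPM with R1881, replicate 4 being the highest of the darolutamide libraries (log2 fold change -0.57, limma adjusted p = 0.000137).

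The spindle-associated proteins were lower in 6 of 6 (median log2 fold change -0.60). NUSAP1, which bundles microtubules near chromosomes (chromosome 15, 41320794 to 41381050), measured 60.8, 65.4, 63.5, 57.0 and 62.1 CPM in R1881 + darolutamide libraries and 82.3, 99.4 and 111 CPM (lowest, median, highest) in R1881 libraries (log2 fold change -0.64 ± 0.0648, limma adjusted p = 2.18e-07). ASPM, a protein of the spindle poles (chromosome 1, 197084121 to 197146694), measured 16.6, 16.3, 15.9, 13.7 and 15.4 CPM with darolutamide and 17.2, 21.7 and 27.0 CPM with R1881 (lowest, median, highest). Both genes were separated, NUSAP1 by a wide gap and ASPM by a narrow one (ASPM log2 fold change -0.46 ± 0.0899, limma adjusted p = 0.000381). The other 4 did not overlap between the groups either. The log2 fold change was -0.67 for HMMR, a spindle and hyaluronan-binding protein, -0.61 for DLGAP5, which stabilises kinetochore fibres, -0.58 for CKAP2 and -0.52 for TPX2, the activator of AURKA on the spindle.

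The genes of cytokinesis were lower in 4 of 4 (median log2 fold change -0.52), and none overlapped between the groups. ANLN, anillin, the scaffold of the contractile ring (chromosome 7, 36389821 to 36453791), measured 38.3, 41.4, 40.4, 33.8 and 36.8 CPM in R1881 + darolutamide libraries and 51.5, 64.4 and 70.6 CPM (lowest, median, highest) in R1881 libraries (log2 fold change -0.70 ± 0.0749, limma adjusted p = 5.21e-07). ECT2, the exchange factor that activates RhoA at the cleavage site (chromosome 3, 172750682 to 172821474), measured 55.0, 59.05, 60.7, 51.0 and 58.5 CPM with darolutamide and 64.1, 78.6 and 95.2 CPM with R1881 (lowest, median, highest), the R1881 libraries being far more spread than those with darolutamide (log2 fold change -0.46 ± 0.0918, limma adjusted p = 0.000432). RACGAP1 and PRC1, which hold the central spindle together, had log2 fold changes of -0.54 and -0.51 (limma adjusted p = 2.46e-06 and 9.79e-06).

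The transcription factors of the programme and the proliferation marker Ki-67 were lower in 3 of 3. MKI67, which encodes Ki-67 (chromosome 10, 128096659 to 128126423), measured 65.0, 57.4, 65.8, 59.5 and 61.0 CPM in R1881 + darolutamide libraries and 88.6, 110 and 123 CPM (lowest, median, highest) in R1881 libraries. Its fold change was the most negative of the 41 (log2 -0.79 ± 0.0751, a ratio of 0.576, limma adjusted p = 9.48e-08). FOXM1, an activator of G2 and M genes (chromosome 12, 2857680 to 2877174), measured 64.3, 62.9, 59.2, 63.2 and 68.5 CPM with darolutamide and 75.9, 83.6 and 95.6 CPM with R1881 (lowest, median, highest), with no overlap (log2 fold change -0.40 ± 0.0547, limma adjusted p = 8.24e-06). MYBL2, B-MYB, the partner of the MuvB core in S phase and G2 (chromosome 20, 43667019 to 43716495), measured 27.5, 29.7, 19.9, 40.6 and 29.5 CPM with darolutamide and 40.9, 45.3 and 54.5 CPM with R1881 (lowest, median, highest). Its darolutamide libraries spread widely, replicate 4 lying just under the lowest R1881 library and replicate 3 far below it (log2 fold change -0.68 ± 0.116, limma adjusted p = 0.000103).

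The R1881 runs differed from each other in the same genes, with the same treatment in both. In the comparison of libraries 71-75 with 51-55, 18 of the 41 mitotic genes were lower in 71-75 and none was higher in limma (0 also at an unadjusted p under 0.05 and by edgeR and DESeq2), against 0.851% of all genes lower and 0.249% higher. The median log2 difference, 71-75 minus 51-55, was -0.24 for the mitotic genes (range -0.38 to 0.11) and -0.01 for all genes. Every library of 71-75 lay below every library of 51-55 in 25 of the mitotic genes, against 4.71% of all genes. The 18 genes were CDK1, CCNA2, CCNB1, CCNB2, NEK2, CDCA8, BUB1B, MAD2L1, NUF2, TPX2, ASPM, DLGAP5, CKAP2, ECT2, RACGAP1, ANLN, PRC1 and MKI67, and they included 4 of 4 cytokinesis genes, 4 of 6 genes of the cyclin-dependent kinase switch and none of the 3 anaphase genes.

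Of the 41 genes ECT2 had the largest difference between the R1881 runs, with 72.2, 70.5, 65.1, 64.1 and 72.4 CPM in libraries 71 to 75 and 95.2, 93.8, 88.2, 86.5 and 84.8 CPM in libraries 51 to 55 (log2 difference -0.38 ± 0.0539, limma adjusted p = 0.00562). MKI67 measured 102, 99.0, 91.2, 88.6 and 104 CPM in 71 to 75 and 118, 123, 117, 116 and 121 CPM in 51 to 55 (log2 difference -0.30 ± 0.0497, limma adjusted p = 0.0165). CDK1 measured 248, 250, 235, 235 and 261 CPM in 71 to 75 and 311, 314, 292, 278 and 287 CPM in 51 to 55 (log2 difference -0.27 ± 0.0569, limma adjusted p = 0.0365). In each of these 3 genes the runs were separate. AURKB was nearly level, with 10.6 to 13.9 CPM in 71-75 and 10.6 to 13.3 CPM in 51-55 (log2 difference -0.05, limma adjusted p = 0.787), and so were INCENP (-0.04, limma adjusted p = 0.876) and MYBL2 (-0.07, limma adjusted p = 0.781). The androgen targets were not lower together: KLK3 was higher in 71-75 than in 51-55 (log2 difference 0.35, limma adjusted p = 0.00678), TMPRSS2 was also higher (0.16, limma adjusted p = 0.0328), and FKBP5 did not pass (-0.11, limma adjusted p = 0.276). The count of 18 rested on all 10 libraries and on the method. Leaving out R1881 replicates 1 to 10 in turn gave 9, 11, 9, 9, 2, 2, 3, 4, 1 and 2 mitotic genes, edgeR gave 6, and the median log2 difference stayed between -0.26 and -0.21 whichever library was left out. Libraries 73 and 74 (R1881 replicates 6 and 5) had the lowest mean log2 level of the mitotic genes in their run (5.27 and 5.25). Without both, a setting added after the data were seen, limma called 0 of the 41 genes, and over all genes 2 lower and 6 higher. The median log2 difference was -0.18 for the 41 genes and -0.003 for all genes. At an unadjusted p under 0.05, 26 of the 41 were lower and 0 higher, but the share of all genes at that threshold was not computed.

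**Figure D3:**
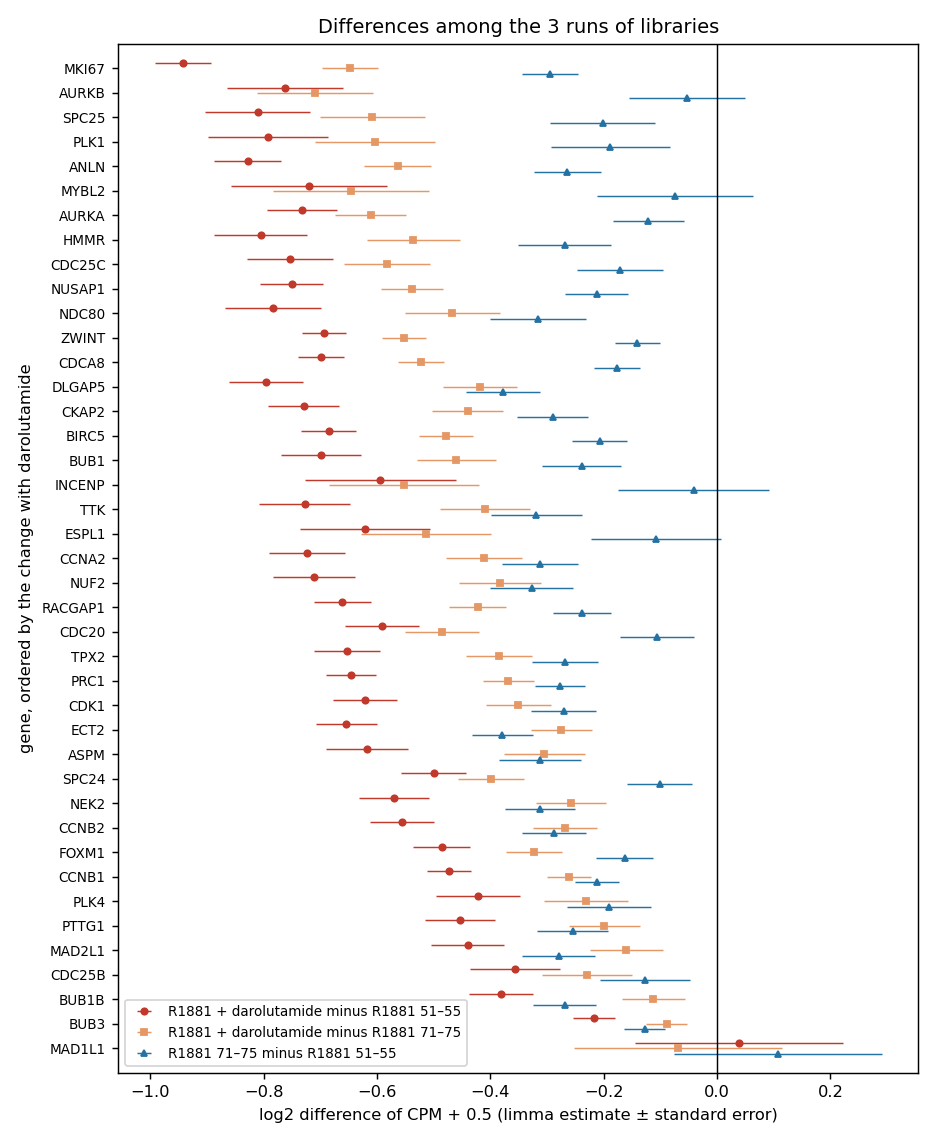
Log2 differences of CPM + 0.5 (limma estimate ± SE) for each mitotic gene between R1881 + darolutamide and R1881 51-55 (red circles), R1881 + darolutamide and R1881 71-75 (orange squares), and R1881 71-75 and R1881 51-55 (blue triangles). For 40 genes all 3 differences are negative, and for MAD1L1 they lie around 0.

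Set against each R1881 run separately, 40 mitotic genes were lower with darolutamide than in 51-55 (23.6% of all genes were lower) and 37 were lower than in 71-75 (21.1% of all genes). The median log2 difference was -0.66 from 51-55 and -0.42 from 71-75. Both comparisons used the same darolutamide libraries. Against 71-75 the genes that did not pass were BUB1B (log2 difference -0.11, limma adjusted p = 0.121), BUB3 (-0.09, limma adjusted p = 0.0606), MAD2L1 (-0.16, limma adjusted p = 0.0559) and MAD1L1 (-0.07, limma adjusted p = 0.795). With only those 10 libraries in the fit CDC25B did not pass either (limma adjusted p = 0.0598). Every darolutamide library was below every library of 71-75 in 32 of the 41 genes, against 14.6% of all genes. The means ran in the order R1881 + darolutamide, R1881 71-75, R1881 51-55 in 40 of the 41 genes. That order largely restates the negative differences above, and its share over all genes was not computed. The mean log2 level over the 41 genes was 4.90 ± 0.0345 in darolutamide libraries, 5.31 ± 0.0494 in 71-75 and 5.53 ± 0.0428 in 51-55 (SD, n = 5 each), and the 3 ranges did not overlap. In 8 genes (CCNB2, ASPM, ECT2, NEK2, PTTG1, MAD2L1, BUB3 and BUB1B) the difference between the R1881 runs was larger than that between darolutamide and 71-75. In AURKB, AURKA, INCENP and MYBL2 the difference between darolutamide and 71-75 was between -0.55 and -0.71 on the log2 scale, while the R1881 runs did not pass the test.

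Other genes of cell division were taken from lists of their complexes and phases, whose counts stand beside 23.7% of all genes lower and 22.8% higher. All 13 mitotic kinesins, the motors of the spindle, were lower with darolutamide (median log2 fold change -0.59), among them KIF22, which pushes chromosome arms (-1.18), and KIF20A, needed at the midzone (-0.81). All 19 other genes periodic in G2 and M were lower (median -0.54), with CDCA3 at -0.64 and FAM83D at -0.74. Of 32 centromere and kinetochore genes 22 were lower, 1 was higher and 9 did not pass (median -0.37). CENPN, which binds the centromeric nucleosome (-1.96), and KNSTRN (-0.99) had the smallest p, and NSL1 was the one that rose (0.22, named after its value was seen). Of 22 condensin and cohesin genes 17 were lower and 1 was higher (median -0.39), with NCAPD3, a condensin II subunit, at -3.69 and NCAPD2, of condensin I, at -0.37. STAG2 was the one that rose (0.14, limma adjusted p = 0.0498, named after its value was seen).

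The medians of 5 further lists were nearer 0 than those above, and the shares of lower genes in the first pair (6 of 18 and 6 of 20) were not far from the 23.7% of all genes. Of 18 subunits and partners of the anaphase-promoting complex 6 were lower and 1 was higher (median log2 fold change -0.10), with the conjugating enzyme UBE2C at -0.52 and ANAPC13 at -0.29. Of 20 centrosome and spindle pole genes 6 were lower and 1 was higher (median -0.11), with STIL at -0.62 and TUBG1, gamma-tubulin, at -0.66. Of 13 midbody and abscission genes 8 were lower and none was higher (median -0.22), with the kinase CIT at -0.57 and SHCBP1 at -0.54. Of 18 further genes of the mitotic entry switch 8 were lower and 3 were higher (median -0.15). CDC25A was the most changed of them (-0.81), and the genes that rose were PPP2R2A, a subunit of the phosphatase that opposes CDK1 (0.45), WEE1, the kinase that inhibits CDK1 (0.33, limma adjusted p = 0.000486), and CCNH (0.18), WEE1 and CCNH being named after their values were seen. Of 28 genes of origin licensing and S phase 19 were lower and none was higher (median -0.29), with FEN1 at -0.59 and CDC6 at -0.55.

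In the comparison of the R1881 runs, 71-75 against 51-55, where 0.851% of all genes were lower, none of the 11 lists had a gene that was higher. Lower were 9 of 19 other genes periodic in G2 and M (median log2 difference -0.28), 6 of 13 kinesins (-0.27), 6 of 32 centromere and kinetochore genes (-0.22), 4 of 20 centrosome genes (-0.14), 3 of 22 condensin and cohesin genes (-0.18), 3 of 28 S phase genes (-0.11), 2 of 13 midbody genes (-0.10) and 1 of 11 DREAM and MuvB genes (-0.03). None was lower among 18 genes of the anaphase-promoting complex (-0.03), 18 of the mitotic entry switch (-0.09) and 6 CDK inhibitors and G2 brakes (-0.04). These list counts are from the main fit only, and calls between the R1881 runs depended on the setting. Over all genes 147 were lower in the main fit, 6 to 97 with 1 library left out and 2 without R1881 replicates 5 and 6.

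**Figure D4:**
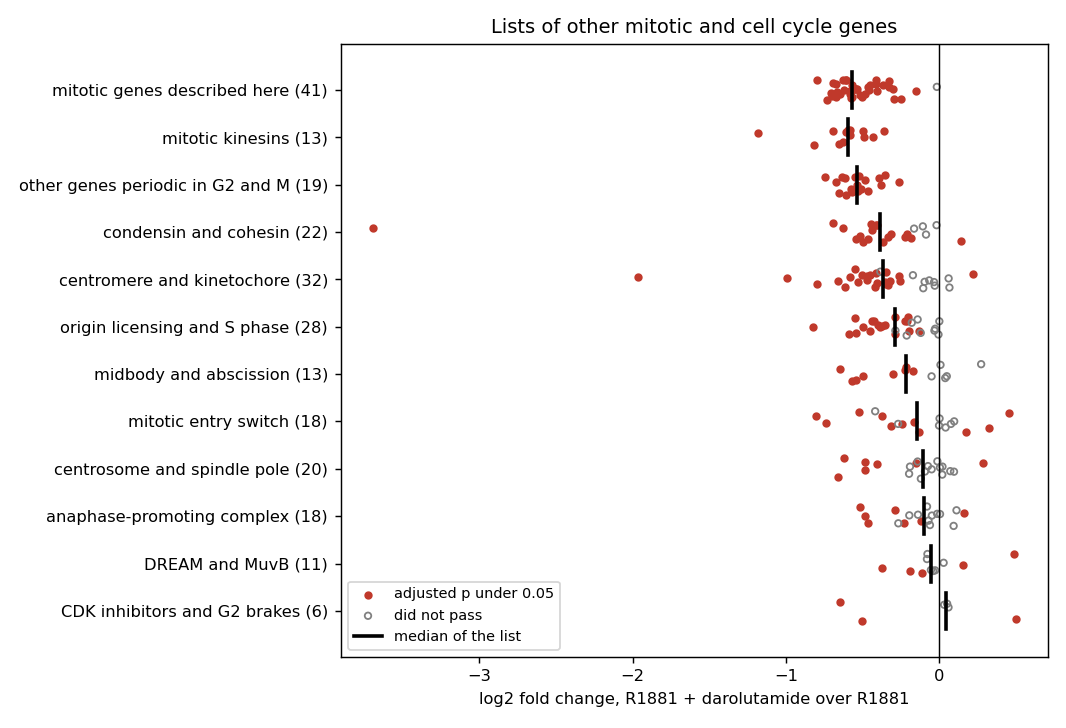
Log2 fold change, R1881 + darolutamide over R1881, of each gene (points) in the 41 mitotic genes and 11 lists of other cell division genes (rows, number measured in brackets), filled red where the limma adjusted p was under 0.05. Black bars mark medians, which run from -0.59 for the kinesins to 0.04 for the CDK inhibitors and G2 brakes.

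The promoters bear on what the genes share beyond their names. RefSeq promoters, from 250 bases before to 50 bases after the start (GRCh38.p14), were matched for 34 of the 41 genes, with AURKA, BIRC5, BUB3, FOXM1, RACGAP1, TPX2 and TTK left out, and for 9968 genes of the table. The CHR (TTTGAA or TTCGAA, both strands) was found in 23 of 34 mitotic promoters, or 67.6%. It was found in 2 of 26 promoters of the S phase list (7.69%), in 10.8% of the genes of the table and in 16.4% of all 35116 promoters. At least 1 CCAAT (both strands) was found in 24 of 34 mitotic promoters (70.6%), in 53.8% of the S phase list and in 37.3% of the genes of the table, and 2 or more in 50.0%, 38.5% and 14.1%. The CHR and CCAAT stood together in 52.9% of mitotic promoters, 7.69% of S phase promoters and 4.73% of the genes of the table. E2F motifs (TTCCCGC or TTGGCGC, both strands, of which TTGGCGC can share its TTGG with a reversed CCAAT box) were found in 7 of 34 mitotic promoters (20.6%), 19 of 26 S phase promoters (73.1%) and 14.9% of the genes of the table. The motif AGAACA, the core of an androgen receptor site, was found in 8.82% of mitotic promoters and 8.68% of the genes of the table.

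The CHR matches lay close to the start, with a median position of -24.5 bases and 24 of 32 matches within 50 bases of it. The CCAAT matches had a median position of -74.5, farther upstream, with 48 of 54 matches between -150 and -1. The printed promoters of CCNB2, HMMR and PLK1 have this order, and those of CDC20, CDK1 and MKI67 do not have it throughout. The median log2 fold change with darolutamide was -0.57 in the 23 genes with a CHR and -0.45 in the 11 without. It was -0.57 both in the 24 genes with a CCAAT and in the 10 without, and -0.62 in the 7 genes with an E2F motif and -0.57 in the 27 without. These medians are a description with no test. MAD1L1, CKAP2 and MYBL2 held neither CHR, CCAAT nor E2F letters in this window, although CKAP2 and MYBL2 were lower with darolutamide. A match says only that the letters are there, and no match says nothing of the factor.

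**Figure D5:**
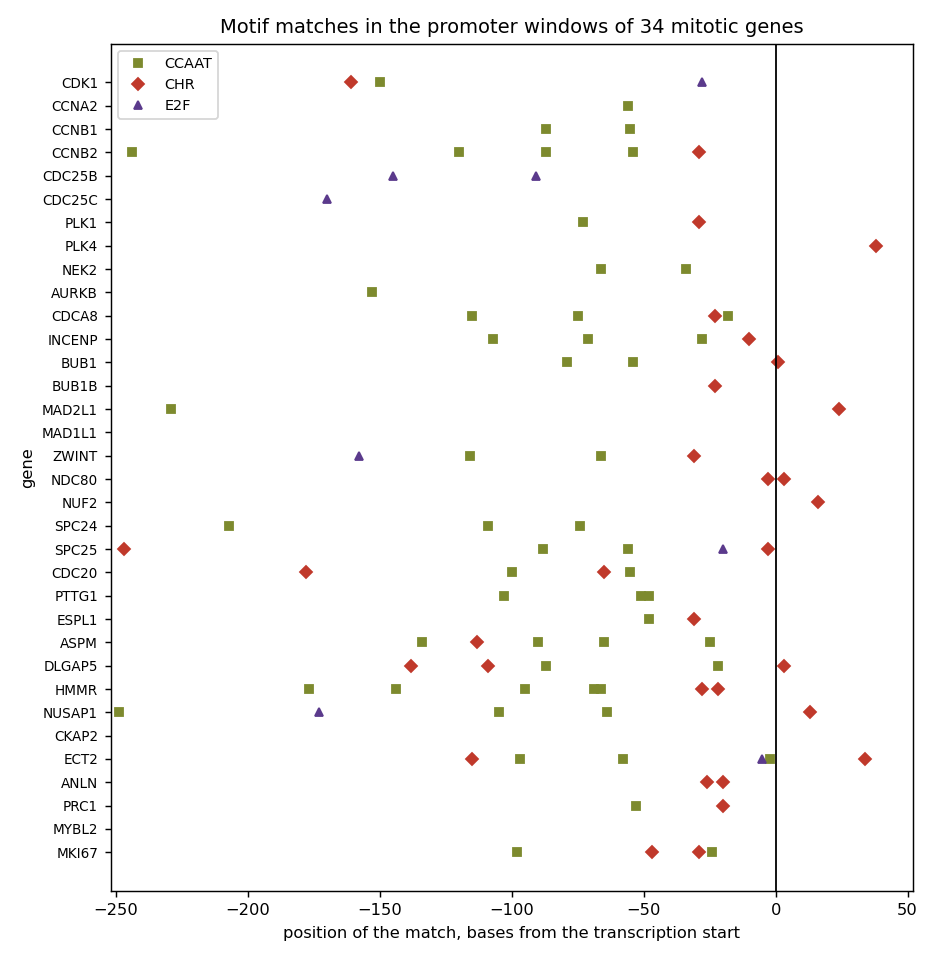
Positions of CCAAT (green squares), CHR (red diamonds) and E2F (purple triangles) matches on either strand, in bases from the transcription start (horizontal axis, start at 0), in the promoter windows of 34 mitotic genes (rows). Diamonds gather around the start and squares upstream of it, and the rows of MAD1L1, CKAP2 and MYBL2 are empty.

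Some of the genes share exon bases with other genes in GENCODE 44, and how the counting treated such reads is not given in the sources used here. Other protein-coding gene models on the same strand cover 81.4% of the exon bases of NUSAP1, 57.6% of PRC1 and 43.2% of MAD1L1. On the opposite strand, PRC1-AS1 overlaps 34.3% of PRC1 and ITFG2 overlaps 15.9% of FOXM1. Reads of these genes may be split or shared with the overlapping gene, so their levels are less certain than those of the other mitotic genes.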

How the data were processed

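Poly(A) RNA of 15 LNCaP libraries was prepared with a stranded kit and sequenced as single-end reads of 50 bases. Per the study's methods, reads were aligned to GRCh38 with STAR and counted per gene with featureCounts. Their versions, the annotation, the strand setting and any filter on genes are not given in the sources used here. The deposited values are a signal, whole read counts divided by one factor per library; 100% of them gave whole reads (tolerance 0.001 reads). The factor removes depth, so CPM does not carry the precision of each library, which was read from the recovered counts.

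The values of a library summed to 1005403 to 1031224 with darolutamide and 1053406 to 1078567 with R1881, were called CPM and were not rescaled. Log2(CPM + 0.5) was fitted for all 17272 genes with limma 3.58.1 (trend, R 4.3.3), with Benjamini-Hochberg adjustment and a threshold of 0.05. R1881 + darolutamide (5 libraries) was compared with R1881 (10 libraries) in one fit, and the 3 runs of library numbers in another. Alternatives were edgeR 4.0.16 (quasi-likelihood, TMM) and DESeq2 1.42.0 on recovered reads, library totals, a minimum mean of 1 CPM and pseudocounts of 0.1 and 1. Others were a replicate block, single R1881 runs, the R1881 libraries fitted alone, a term for the R1881 runs and each library left out. Darolutamide replicates 3 and 4, which these data set apart, were left out together. So were R1881 replicates 5 and 6 (added after the data were seen). Groups follow the labels.

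On simulated counts, limma recovered 25 of 100 genes changed by 0.25 and 61 of 100 changed by 0.5 (log2) in the darolutamide comparison, with 7 false calls among the 17072 unchanged genes. In the run comparison it recovered 14 and 55, with 8 false calls. The simulated spread was estimated with the R1881 runs pooled. In the data far more genes passed with darolutamide (4098 lower and 3946 higher) than were changed here. The recovered and false shares of the simulation therefore need not hold for the data. The members and lists were chosen with earlier results of these data known. All 41 genes are named, with values per library for the genes of smallest and largest p in each role class and for CDK1, CCNB1, CCNA2, PLK1, AURKA, FOXM1 and MKI67. From every other list up to 2 genes of smallest p past the test are named. Older symbols were matched through RefSeq synonyms. No pair of libraries agreed within sampling noise.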

Additional observations from a re-analysis of the deposited data

Results flagged for a closer look

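Of 84 groups of values examined, 6 held a library far from the others of its group, where chance flags about 1 in 20. In R1881 + darolutamide libraries, CCNB1 measured 92.6 CPM in replicate 4 and 99.1 to 99.5 CPM in the other 4. PLK1 measured 28.3 CPM in replicate 4 and 17.3 to 20.3 CPM in the others. MAD1L1 measured 22.2 CPM in replicate 4 and 8.802 to 10.8 CPM in the others. RACGAP1, a component of the central spindle, measured 48.1 CPM in replicate 4 and 53.1 to 55.0 CPM in the others. NUF2 measured 15.9 CPM in replicate 2 and 13.1 to 13.7 CPM in the others. The mean log2 level of the 41 genes was 4.96 in replicate 2 and 4.88 to 4.90 in the others. Replicate 4 was thus high for PLK1 and MAD1L1 and low for CCNB1 and RACGAP1. These libraries were left in except where a value without them is given.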

How the results depend on the processing

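With darolutamide, 40 mitotic genes stayed lower under edgeR, DESeq2, the expression filter, both pseudocounts, R1881 51-55 only, the term for the R1881 runs and without darolutamide replicates 3 and 4, and 40 to 41 did when any one library was left out. No mitotic gene was higher under any of these settings. The term for the R1881 runs parts only those 2 runs. It left the median log2 fold change at -0.57 and cannot adjust the darolutamide comparison for run. Scaling by library totals gave 38, and R1881 71-75 only gave 36, with a median log2 fold change of -0.42 in place of -0.57. Leaving out one library gave medians from -0.59 to -0.52. Over all genes, scaling by library totals gave 3030 lower and 5326 higher genes, where the CPM gave 4098 and 3946, and moved the median log2 fold change of all genes to 0.07.

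For R1881 71-75 against 51-55, the count of 18 lower mitotic genes was 6 with edgeR, 11 with library totals, 22 with DESeq2, 23 with the R1881 libraries fitted alone, 1 to 11 with one library left out and 0 without R1881 replicates 5 and 6. Over all genes, 147 were lower and 43 higher. Lower genes numbered 39 with edgeR, 82 with library totals, 396 with the R1881 libraries alone, 6 to 97 with one library left out and 2 without replicates 5 and 6. Higher genes numbered 71 with DESeq2, 139 with the R1881 libraries alone, 9 to 32 with one library left out and 6 without replicates 5 and 6. The median stayed negative under each of these settings, and the cause of the changes in count was not tested.

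Replicate numbers are shared between the groups, but same-numbered libraries did not deviate together (correlations -0.14 to 0.34 over all genes), and no library correlated best with its own number. With a replicate block, 37 mitotic genes were lower (median log2 fold change -0.53), and BUB1B, BUB3 and MAD2L1 no longer passed (limma adjusted p = 0.0519, 0.0707 and 0.0783). Over all genes the block gave 3165 lower and 3077 higher.

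Treatment and run of libraries coincide in this design. SPC25, with as few as 95 reads in a library, is the least precisely counted of the genes.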

Other observations

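The lists of CDK inhibitors and G2 brakes and of DREAM and MuvB genes stand beside 23.7% of all genes lower and 22.8% higher. Their counts were not read as different from these shares. Of 6 CDK inhibitors and G2 brakes 2 were lower and 1 was higher with darolutamide (median log2 fold change 0.04). CDKN2C, an inhibitor of CDK4 and CDK6, was lower (-0.65) and GADD45A, a stress-induced brake on CDK1, was higher (0.50). CDKN1A, p21, did not pass (0.03, limma adjusted p = 0.673, named after its value was seen). Of 11 genes of the DREAM complex and the MuvB core 3 were lower and 2 were higher (median -0.05). RBL2, the pocket protein p130 that carries DREAM in resting cells, was higher (0.49), and LIN52, a MuvB subunit, was lower (-0.37).

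Within runs, after each run's mean was taken out, correlations between the mitotic genes were taken across the 15 libraries. Their median was 0.41 over 820 pairs of genes, 540 of which were above 0. Each gene's correlation with the mean of the other 40 had a median of 0.50, with NUSAP1 (0.87) and HMMR (0.80) highest and PLK1 (-0.0177), CDC25B (-0.19), INCENP (-0.30), MYBL2 (-0.34) and MAD1L1 (-0.48) lowest. The libraries share their depth and scaling, and these values are a description with no test. The same values for pairs of other genes were not computed.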
